A study of Mus musculus with 29 samples.

Results

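The genes described here encode the proteins of the cytosolic ribosome of mouse CD4 T cells. They were chosen by symbol: rows named Rpl or Rps with a number and an optional letter or paralog ending, the stalk genes named Rplp, and Rpsa, without Rps27l. Of 88 rows with such a symbol, 84 reached 1 CPM (reads scaled to a library total of 1000000) in at least 3 of 9 libraries and are called the members below, out of 54532 rows in the cell-type table. The members were 31 genes of the small (40S) subunit, 45 of the large (60S) subunit, 3 paralogs and 5 loci annotated as pseudogenes. The 4 rows left out were Rps12l1, Rpl3l and Rpl10l, listed at 0 in every library, and Rpl24, with a value in a single naive library of 1.17 CPM. Just inside the level stood Rps3a2, Rpl39l and Rps4l, with means of 0.387, 0.606 and 0.62 CPM over the 9 libraries.

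The study examined lipid synthesis in regulatory T (Treg) cells, and the RNA libraries used here come from 2 of its experiments, all with cells of C57BL/6 mice. In the cell-type experiment, naive CD4 T cells from the spleen were set beside Th0 cultures, grown from them for 5 days in IL-2 (15 ng/ml), and Treg cultures, grown for the same 5 days in IL-2 (15 ng/ml) plus hTGFb (human TGF-beta, 10 ng/ml), with 3 libraries in each group. In the Smad experiment, Treg cultures grown in the same way carried a guide RNA against Smad2 (sgSmad2), against Smad3 (sgSmad3) or against both (sgSmad2/3), and the control cultures carried a label that names no guide, with 2 libraries in each group. How guides and nuclease were delivered is not given in the labels. All 8 Smad libraries therefore come from cultures with IL-2 and TGF-beta. Smad2 and Smad3 are the transcription factors that TGF-beta receptors phosphorylate. Naive cells differed from both cultures in stimulation and in time in culture together, and these cannot be told apart. The labels do not say whether the libraries of a group came from separate mice or cultures, so the p-values below reflect how much these libraries varied, and that variation may be technical.

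The ribosome is built from ribosomal RNA and a fixed set of proteins, each present once per particle apart from the stalk proteins P1 and P2. The 40S subunit reads the messenger RNA and the 60S subunit joins amino acids; a stalk on the 60S subunit recruits the elongation factors. Ribosomal protein messages begin with a cytosine followed by a run of pyrimidines, the 5′ terminal oligopyrimidine (TOP) tract, through which mTORC1 and LARP1 control their translation. Naive T cells are small and translate little, and activation by antigen and IL-2 enlarges them and raises ribosome production. Message levels, measured here, do not show translation.

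The TOP tract is shown first because it is the sequence that these genes share. RefSeq (GRCm38.p6) gave a start for 60 of the 84 members, with 70 windows of 45 bases that reach from 15 bases before the annotated start to 30 bases after it. Capitals mark the longest run, on the coding strand, of a cytosine followed by at least 4 pyrimidines (C or T). Shown are 3 members that were lower in the cultures than in naive cells, followed by 3 that were higher, so that their starts can be compared.
Rps27, chr3:90213619-90213663, minus strand: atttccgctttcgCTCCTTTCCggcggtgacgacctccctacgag
Rpl12, chr2:32961697-32961741, plus strand: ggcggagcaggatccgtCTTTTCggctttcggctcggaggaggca
Rplp2, chr7:141447636-141447680, plus strand: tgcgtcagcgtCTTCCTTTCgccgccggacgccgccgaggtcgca
Rpl7a, chr2:26910792-26910836, plus strand: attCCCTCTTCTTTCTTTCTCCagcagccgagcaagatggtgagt
Rps26, chr10:128626477-128626521, minus strand: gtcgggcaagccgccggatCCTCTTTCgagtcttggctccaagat
Rpl28, chr7:4792950-4792994, plus strand: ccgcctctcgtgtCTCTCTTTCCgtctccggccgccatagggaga

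The 6 windows shown were picked among those that hold such a run, and not every member has one. A run of 5 or more bases was found in 78.6% of the members' windows, against 48.0% of all 32817 RefSeq windows of this length. A run of 8 or more was found in 44.3% of the members' windows and in 13.0% of all windows. The letters CTTTC occurred in 28.6% of the members' windows and 5.77% of all windows, and on the other strand in 7.14% and 5.71%. These searches overlap, since CTTTC is itself such a run. Of the windows of members that were lower in Treg cultures than in naive cells, 72.7% (8 of 11 windows) held a run of 5 or more, and of those that were higher, 71.4% (10 of 14 windows). A run of 8 or more was found in 27.3% of the windows of lower members (3 of 11) and in 57.1% of those of higher members (8 of 14). These are few windows, and the difference was not tested. A match is a description of the letters and not a mapped start.

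The libraries held between 797612 and 1551478 reads in the cell-type experiment and between 1294583 and 1602297 in the Smad experiment. The floor of 3 reads, the limit that a count of 0 allows, corresponded to 1.93 to 3.76 CPM in the first and 1.87 to 2.32 CPM in the second, which covers counting error only. The transcript Gm42418, which overlaps ribosomal RNA sequence, took 10.3 to 11.4% of reads in naive cells and 6.59 to 8.78% in the cultures. The 5 T-cell markers Cd3e, Cd3g, Cd4, Cd5 and Lck were present in all libraries, with sums of 1799 to 1815 CPM in naive cells, 1243 to 1345 CPM in the cultures and 1003 to 1331 in the Smad libraries. Foxp3, which defines Treg cells, was higher in Treg than in Th0 cultures by 3.99 on the log2 scale (limma, adjusted p = 2.29e-10). Naive libraries also held RNA of other cells. Their summed red-cell markers (5 genes) were at 496 to 1172 CPM, against 0 to 5.55 CPM in the cultures, their myeloid markers (8 genes) at 21.0 to 94.2 CPM against 0 to 3.23 CPM, and their B-cell markers (8 genes, mostly Ighm) at 207 to 390 CPM against 103 to 124 CPM. Tyrobp, S100a8 and Alas2 were listed at 0 in all 6 culture libraries. The part of these cells in the differences from naive cells was not tested.

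The members together took a similar share of the reads in naive, Th0 and Treg libraries. Their summed share was 6.46, 6.98 and 6.96% in the naive libraries, 7.42, 6.96 and 6.65% in Th0 and 6.73, 6.69 and 6.36% in Treg. The ranges of the 3 groups overlapped. The group means were 6.80% ± 0.297 (SD, n = 3) in naive cells, 7.01% ± 0.387 (SD, n = 3) in Th0 and 6.60% ± 0.203 (SD, n = 3) in Treg cultures. In the Smad experiment the share was 6.74 and 6.30% in control, 6.61 and 5.72% in sgSmad2, 5.25 and 5.32% in sgSmad3 and 5.67 and 5.57% in sgSmad2/3. There, both sgSmad3 libraries were lowest and both controls lay above all libraries with a guide against Smad3. In bulk RNA, fewer cells of a type and less RNA per cell cannot be told apart.

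**Figure D1:**
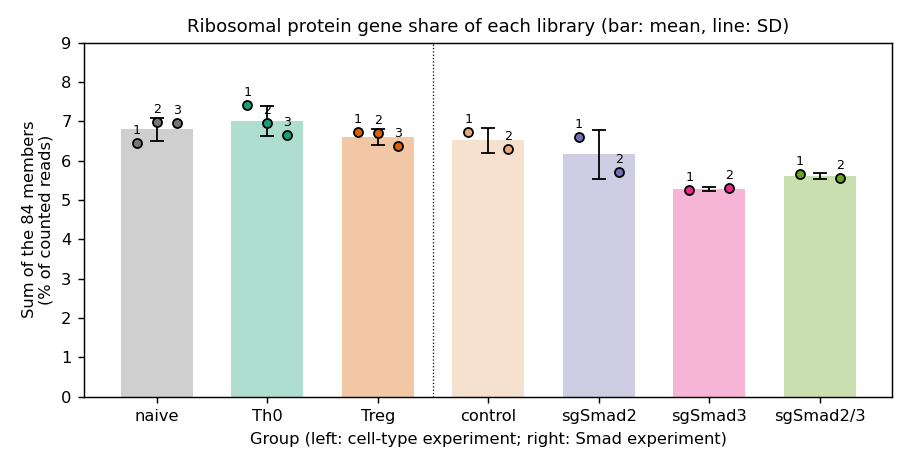
Summed share of the 84 members in each library (y axis, percent of counted reads) by group (x axis), with points for libraries numbered by replicate, bars for group means and lines for the SD. The naive, Th0 and Treg libraries lie between 6.36 and 7.42% and overlap, and the libraries with a guide against Smad3 lie between 5.25 and 5.67%.

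Members differed widely in their number of reads. The reads come from the 3′ end of each message and are not divided by gene length. Over the 9 cell-type libraries the median member had a mean of 553.7 CPM, 27 members had 1000 CPM or more and 8 had under 10 CPM. The highest were Rplp1, the acidic stalk protein P1, with a mean of 3276 CPM, Rps14, a protein of the 40S platform, with 3128 CPM, and Rpl37, a zinc-finger protein of the 60S subunit, with 2519 CPM. Rps6, the 40S protein that S6 kinase phosphorylates, had 59.7 CPM, below the median member. Among the members under 10 CPM, Rpl26 and Rpl29 had 8.19 and 2.00 CPM.

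Against naive cells, both cultures showed changes of individual members in opposite directions and not a shift of the whole set. In Treg cultures, 16 members rose and 12 fell of 84 (limma, adjusted p under 0.05), beside 39.9% of all 14165 genes called (23.3% higher, 16.5% lower). In Th0 cultures, 21 rose and 12 fell, beside 41.9% of all genes (24.3% higher, 17.6% lower). The members called were 28 and 33, so their share of 84 lay below or near the share of all genes. The median log2 change of the members was 0.015 in Treg and 0.10 in Th0, against 0.081 and 0.084 over all genes tested. Both comparisons use the same 3 naive libraries, so their values are given side by side and one is no check of the other. Counted that way, 15 members were called higher and 10 lower in both. Shared naive libraries favour such an overlap in any set of genes, and its share over all genes is not given here.

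The balance of higher and lower members depended on how libraries were scaled. All genes shifted with the scaling too: their median in Treg went from 0.081 to 0.0043 with TMM and -0.045 with quantile scaling. The share of all genes called in each setting is not given, here or for the subunits below. The counts therefore do not set the members apart from other genes. With TMM scaling (trimmed mean of M-values), 12 members were higher and 25 lower in Treg cultures, and 15 and 15 in Th0. With quantile scaling the counts were 26 and 11 in Treg and 26 and 9 in Th0. With each library scaled by its sum without the members and Gm42418 they were 12 and 18 in Treg and 17 and 13 in Th0, and scaled to the sum of the members 18 and 10, and 16 and 13. The test of edgeR on whole reads called 12 higher and 26 lower in Treg and 14 and 15 in Th0, and DESeq2 10 and 23, and 13 and 12. Of the calls against naive cells, 14 of 33 in Th0 and 10 of 28 in Treg were kept in all 22 alternatives. Rpl13a turned in direction in 1 alternative in Th0, and no other called member turned in any of the 22. The call was lost in 9 or more of the 22 for Rpl30, Rpl31, Rpl36a, Rpl6, Rpl7 and Rps25 in Th0 and for Rpl27, Rpl30, Rpl36a, Rpl39 and Rpl4 in Treg.

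**Figure D2:**
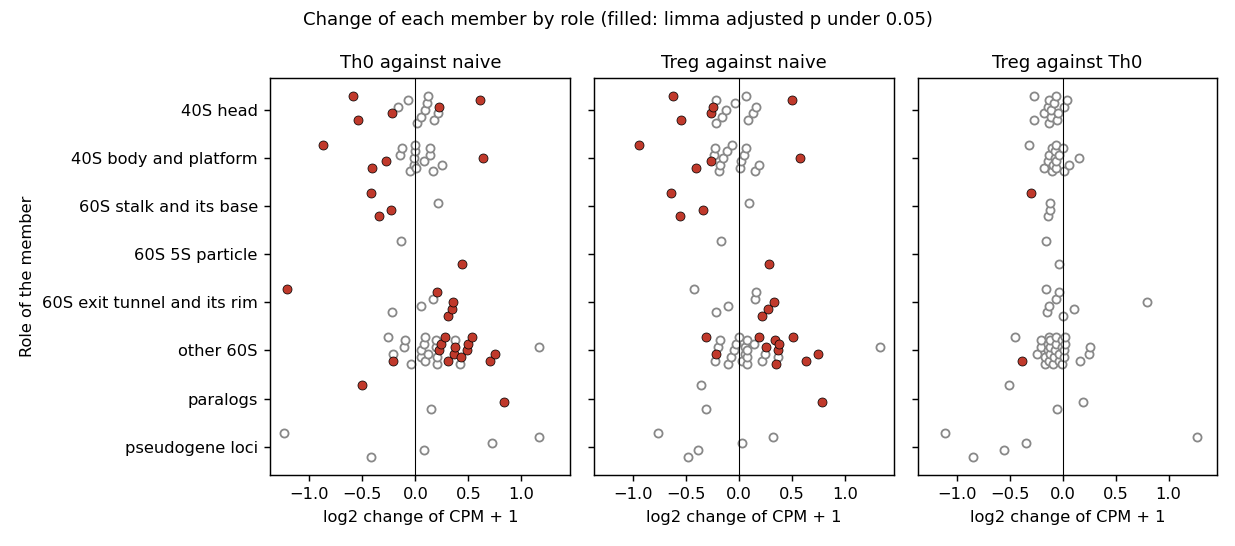
Log2 change of CPM + 1 (x axis) of each of the 84 members by role (y axis) in Th0 and Treg cultures against naive cells and in Treg against Th0 cultures; filled points passed limma's adjusted p of 0.05. Of the 4 stalk genes, 3 lie to the left of 0 in both comparisons with naive cells, and only 2 points are filled between the cultures.

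Of the 31 genes of the 40S subunit, 7 fell and 2 rose in Treg cultures, beside 16.5% of all genes called lower and 23.3% higher. Their median log2 change was -0.12 against 0.081 over all genes. In Th0 cultures 6 fell and 3 rose, beside 17.6% of all genes called lower and 24.3% higher, with a median of 0.0046 against 0.084. The counts moved with the scaling: TMM gave 15 lower and 2 higher in Treg and 7 and 2 in Th0, edgeR 15 and 2, and 8 and 2, and DESeq2 14 and 2, and 6 and 2. Quantile scaling gave 7 lower and 6 higher in Treg and 5 and 5 in Th0. Rps27, a zinc-finger protein of the 40S subunit (Ensembl ENSMUSG00000090733, chr3:90212667-90213648), fell most among the well-measured members. Its level was 2333, 2380 and 2254 CPM in naive cells, 1358, 1261 and 1188 CPM in Th0 and 1259, 1158 and 1196 CPM in Treg. All naive libraries lay far above all 6 culture libraries, and the cultures overlapped each other. The log2 change was -0.95 ± 0.07 (SE) in Treg (limma, adjusted p = 3.1e-09) and -0.87 ± 0.07 in Th0 (adjusted p = 8.85e-09).

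Rps29, another zinc-finger protein, which sits in the 40S head, was at 2644, 2807 and 2827 CPM in naive cells, 2011, 1826 and 1693 CPM in Th0 and 1835, 1873 and 1954 CPM in Treg. The naive libraries again did not overlap the cultures, and the log2 change was -0.55 ± 0.07 in Treg and -0.58 ± 0.07 in Th0 (limma, adjusted p = 6.55e-06 and 2.68e-06). Rps28, in the 40S head near the messenger RNA exit, was at 727, 873 and 845 CPM in naive cells, 616, 548 and 517 CPM in Th0 and 548, 547 and 490 CPM in Treg. It too was higher in every naive library than in any culture, with log2 changes of -0.62 ± 0.09 in Treg and -0.54 ± 0.09 in Th0 (limma, adjusted p = 1.91e-05 and 8.86e-05). Rps24 fell by 0.41 on the log2 scale in both, but its naive libraries ranged from 1586 to 2200 CPM, and the lowest of them overlapped the highest Th0 library at 1589 CPM. Rps21 fell by 0.26 in Treg and 0.28 in Th0, and Rps15 by 0.27 and 0.22. Rps3, a 40S protein at the messenger RNA entry, fell in Treg only by the test, by 0.25 (limma, adjusted p = 0.0133), a call lost in 5 of 22 alternatives; its change between the cultures was -0.18 ± 0.08 and did not pass (limma, adjusted p = 0.242).

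A few 40S genes rose. Rps26, which contacts the messenger RNA at the exit channel, was at 1268, 1422 and 1599 CPM in naive cells, 2439, 2147 and 2069 CPM in Th0 and 2170, 2184 and 2004 CPM in Treg. Every culture library exceeded every naive library, and the log2 change was 0.57 ± 0.09 in Treg and 0.64 ± 0.09 in Th0 (limma, adjusted p = 2.56e-05 and 6.99e-06). Rps12, of the 40S beak, was at 1515, 1839 and 2005 CPM in naive cells, 2948, 2773 and 2413 CPM in Th0 and 2551, 2632 and 2339 CPM in Treg, also without overlap. Its log2 change was 0.50 ± 0.10 in Treg and 0.61 ± 0.10 in Th0 (limma, adjusted p = 0.000333 and 3.84e-05). Rps25 rose in Th0 alone by the test, by 0.22 on the log2 scale (limma, adjusted p = 0.0219), a call lost in 9 of 22 alternatives. Rps6 (0.19 in Treg and 0.25 in Th0), Rpsa, the laminin receptor homolog at the 40S back (0.07 and 0.14), and Rps27a, which is made as a fusion with ubiquitin (0.08 and 0.21), did not pass the test in either culture.

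**Figure D3:**
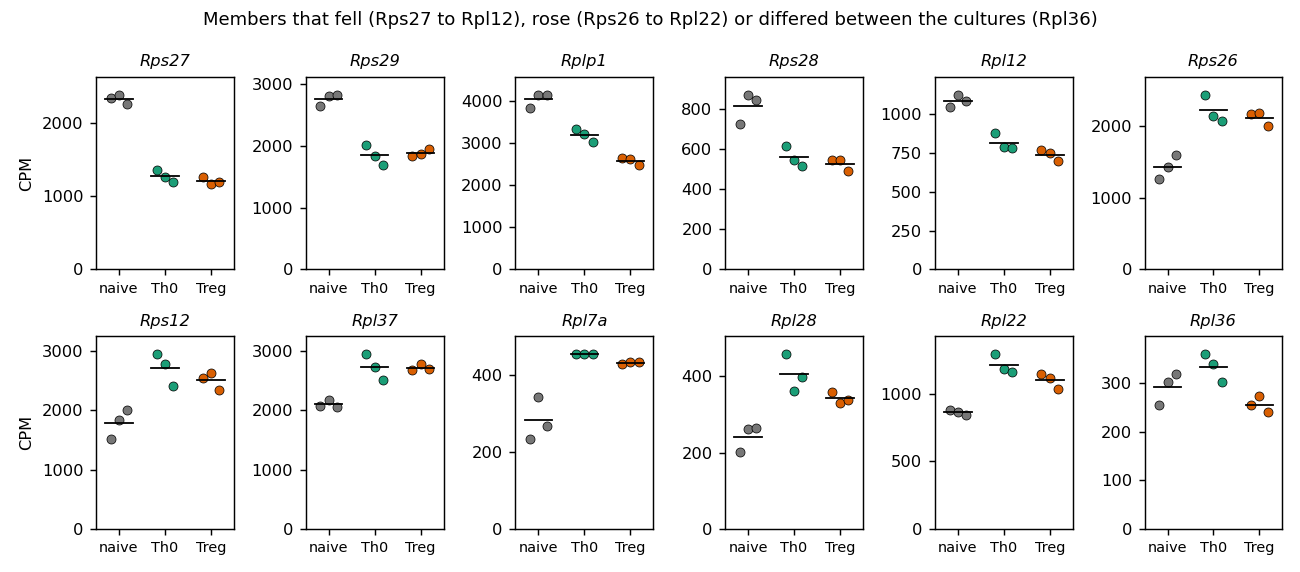
Level in CPM (y axis, from 0) of 12 members in the 3 naive, 3 Th0 and 3 Treg libraries (points; lines are means). Rps27, Rps29, Rplp1, Rps28 and Rpl12 are higher in every naive library than in any culture library, Rps26, Rps12, Rpl37, Rpl7a, Rpl28 and Rpl22 are lower, and Rpl36 is lower in every Treg than in any Th0 library.

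The stalk of the 60S subunit and its base stood lower in the cultures. Of its 4 genes, Rplp1, Rplp2 and Rpl12 fell in both cultures, and Rplp0, which anchors the P1 and P2 proteins, did not pass the test. Over all genes, 16.5% were called lower in Treg and 17.6% in Th0. Rplp1 was at 3846, 4147 and 4156 CPM in naive cells, 3329, 3211 and 3024 CPM in Th0 and 2645, 2634 and 2489 CPM in Treg. The 3 groups did not overlap, with naive cells highest and Treg lowest. The log2 change against naive cells was -0.64 ± 0.07 in Treg and -0.35 ± 0.07 in Th0 (limma, adjusted p = 2.86e-07 and 0.000409). Rpl12, which forms the base of the stalk with Rplp0, was at 1051, 1127 and 1086 CPM in naive cells, 879, 789 and 783 CPM in Th0 and 773, 749 and 696 CPM in Treg. Every naive library lay above both cultures, and Rpl12 fell by 0.56 in Treg and 0.41 in Th0 (limma, adjusted p = 9.13e-06 and 0.000233). Rplp2, the P2 protein, was at 1681, 2044 and 2049 CPM in naive cells, 1722, 1656 and 1542 CPM in Th0 and 1500, 1517 and 1512 CPM in Treg. It fell by 0.34 in Treg and 0.23 in Th0 (limma, adjusted p = 0.00199 and 0.0303), with overlap of the lowest naive library and Th0. The call in Th0 was lost in 6 of 22 alternatives, 4 of them among the 9 fits without 1 library. Rplp0 was at 647, 769 and 659 CPM in naive cells, 806, 810 and 785 CPM in Th0 and 822, 755 and 643 CPM in Treg, with a log2 change of 0.09 in Treg and 0.21 in Th0 (limma, adjusted p = 0.466 and 0.0731). The value of Rplp0 did pass in 3 of 22 alternatives in Th0 and in 1 of 22 in Treg.

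Of the 41 genes of the 60S subunit outside the stalk, 13 rose and 2 fell in Treg cultures, with a median of 0.079 against 0.081 over all genes. In Th0 17 rose and 2 fell, with a median of 0.20 against 0.084. Over all genes, 23.3% were called higher and 16.5% lower in Treg, and 24.3 and 17.6% in Th0. These counts too moved with the scaling: TMM gave 9 higher and 6 lower in Treg and 12 and 4 in Th0. The median in Treg was then -0.0076, against 0.0043 over all genes. For edgeR the counts were 9 and 7, and 11 and 3, and for DESeq2 7 and 5, and 10 and 2. Quantile scaling gave 18 higher and 0 lower in Treg and 19 and 1 in Th0. Rpl7a, a core 60S protein, was at 234, 344 and 269 CPM in naive cells, 455, 455 and 456 CPM in Th0 and 431, 435 and 434 CPM in Treg. All culture libraries exceeded all naive libraries, and the log2 change was 0.63 ± 0.11 in Treg and 0.70 ± 0.11 in Th0 (limma, adjusted p = 0.000107 and 3.17e-05). Rpl28 was at 201, 261 and 264 CPM in naive cells, 459, 363 and 398 CPM in Th0 and 360, 329 and 338 CPM in Treg, again without overlap. Its log2 change was 0.51 ± 0.11 in Treg and 0.75 ± 0.11 in Th0 (limma, adjusted p = 0.00124 and 2.22e-05). Rpl37 rose by a log2 change of 0.37 in Treg and 0.38 in Th0, Rpl3, which lines the peptidyl transferase centre, by 0.37 and 0.54, and Rpl32 by 0.34 and 0.43. These genes passed limma's test in both cultures.

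Of the 5S particle, which pairs RPL5 and RPL11 with 5S ribosomal RNA and can bind MDM2 when free, Rpl11 passed the test and Rpl5 did not, and the difference between them was not tested. Rpl11 was at 1054, 1223 and 1230 CPM in naive cells, 1699, 1509 and 1548 CPM in Th0 and 1400, 1476 and 1379 CPM in Treg. It rose without overlap by 0.28 in Treg and 0.44 in Th0 (limma, adjusted p = 0.00733 and 0.000144). Rpl5 was at 244, 250 and 245 CPM in naive cells, 246, 212 and 216 CPM in Th0 and 211, 201 and 247 CPM in Treg, with overlap, and its changes of -0.17 and -0.14 did not pass (limma, adjusted p = 0.204 and 0.304). Of the 8 genes at the peptide exit tunnel and its rim, 3 rose in Treg (Rpl23a, Rpl4 and Rpl39) and 4 in Th0 (Rpl23a, Rpl4, Rpl35 and Rpl31). Over all genes, 23.3% were called higher in Treg and 24.3% in Th0. The call of Rpl4 in Treg was lost in 14 of 22 alternatives and that of Rpl31 in Th0 in 12. Rpl23a, beside the exit where the signal recognition particle docks, rose by 0.33 in Treg and 0.36 in Th0 (limma, adjusted p = 0.00064 and 0.000258). Rpl39, a short protein within the tunnel, was at 504, 455 and 390 CPM in naive cells and 567, 529 and 527 CPM in Treg; its rise in Treg (0.27, limma, adjusted p = 0.0249) lost the call in 9 of 22 alternatives. Rpl26, at the tunnel exit, was called lower in Th0 at 3.18, 6.66 and 3.67 CPM, against 13.8, 7.43 and 14.0 CPM in naive cells, levels of a few reads (log2 change -1.22 ± 0.42, limma, adjusted p = 0.027). That call was lost in 6 of 22 alternatives. Rpl9 fell in Treg by 0.31 (limma, adjusted p = 0.00483) and Rpl30 by 0.22 in Treg and 0.21 in Th0, calls lost in 11 and 12 of 22 alternatives.

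Between the 2 cultures, which differ by TGF-beta, the members hardly differed. No member was called higher in Treg than in Th0 and 2 of 84 were called lower, beside 5.44% of all genes called (2.99% higher, 2.45% lower); 10 members had an unadjusted p under 0.05, and edgeR and DESeq2 called the same 2. The median log2 change of the members was -0.091, against -0.0085 over all genes, and 66 of the 84 members had a value below 0. Rplp1, with the levels given above, fell by 0.30 on the log2 scale (SE 0.07, limma, adjusted p = 0.0103), and every Treg library lay below every Th0 library. Rpl36, a short 60S protein, was at 255, 302 and 318 CPM in naive cells, 360, 340 and 303 CPM in Th0 and 254, 273 and 241 CPM in Treg. The cultures did not overlap each other, the naive libraries overlapped both, and the log2 change between the cultures was -0.38 ± 0.10 (limma, adjusted p = 0.0352). Neither call held in every setting: without Th0 replicate 1, or without Th0 replicate 2, no member was called, and without naive replicate 2 or any of the Treg replicates only Rplp1 was. Scaled to the sum of the members, no member was called. The median was then -0.0033, against 0.059 over all genes. That scaling takes out a shift shared by the members by construction, so its median does not test one. Among other members, Rpl10a (-0.45), Rps2 (-0.32), Rps19 (-0.27) and Rpl28 (-0.24) did not pass the test.

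Paralogs and their parent genes changed in different proportions. Rpl22, a 60S protein that also binds RNA outside the ribosome, was at 878, 867 and 843 CPM in naive cells, 1296, 1181 and 1159 CPM in Th0 and 1147, 1120 and 1037 CPM in Treg. It rose without overlap, by 0.35 in Treg and 0.49 in Th0 (limma, adjusted p = 0.000818 and 2.53e-05). Its paralog Rpl22l1 was at 204, 208 and 182 CPM in naive cells, 167, 117 and 138 CPM in Th0 and 157, 162 and 159 CPM in Treg. Every naive library was above every culture library, and Rpl22l1 fell by 0.50 in Th0 (limma, adjusted p = 0.00271), while its value of -0.31 in Treg did not pass (limma, adjusted p = 0.0534). In 9 of 22 alternatives, 2 of them among the 9 fits without 1 library, the value in Treg did pass, with an adjusted p down to 0.00388 in edgeR. The paralog thus stood at 23.0% ± 1.21 (SD, n = 3) of the parent in naive cells, 11.6% ± 1.56 (SD, n = 3) in Th0 and 14.5% ± 0.794 (SD, n = 3) in Treg.

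Rpl7l1, a paralog of Rpl7, was at 42.6, 39.6 and 56.1 CPM in naive cells, 79.5, 75.5 and 91.9 CPM in Th0 and 77.5, 78.6 and 81.3 CPM in Treg. It rose without overlap, by 0.78 in Treg and 0.83 in Th0 (limma, adjusted p = 0.000507 and 0.000267), among the largest rises of the members. Rpl7 rose in Th0 by 0.22 (limma, adjusted p = 0.0198), and its 0.14 in Treg did not pass. The call in Th0 was lost in 10 of 22 alternatives, 4 of them among the 9 fits without 1 library. Rpl7l1 stood at 3.38% of Rpl7 in naive cells, 5.18% in Th0 and 5.27% in Treg. Rpl39l and Rps4l had at most 2.48 and 2.22 CPM in any cell-type library and give no comparison, and their parents Rpl39 and Rps4x are given here or above. Rps4x was at 274 to 313 CPM on average in the 3 groups and did not pass the test in any comparison. Its value in Treg against naive did pass in 5 of 22 alternatives.

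The gene left out by the symbol rule, Rps27l, moved opposite to Rps27. Rps27l, a p53-induced paralog, was at 32.6, 37.2 and 28.1 CPM in naive cells, 222, 225 and 224 CPM in Th0 and 199, 196 and 199 CPM in Treg. It rose by 2.57 in Treg and 2.75 in Th0 on the log2 scale (limma, adjusted p = 3.19e-12 and 1.19e-12), and its level as percent of Rps27 went from 1.40% in naive cells to 17.7% in Th0 and 16.5% in Treg. In the Smad libraries that percentage lay between 18.5 and 36.6%, with a mean of 32.8% in sgSmad3 and 21.9% in control. Rps27rt, a retrogene of Rps27, fell by 1.16 in Treg and 1.09 in Th0; it is a near-copy of Rps27, and the counting could split reads between them.

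**Figure D4:**
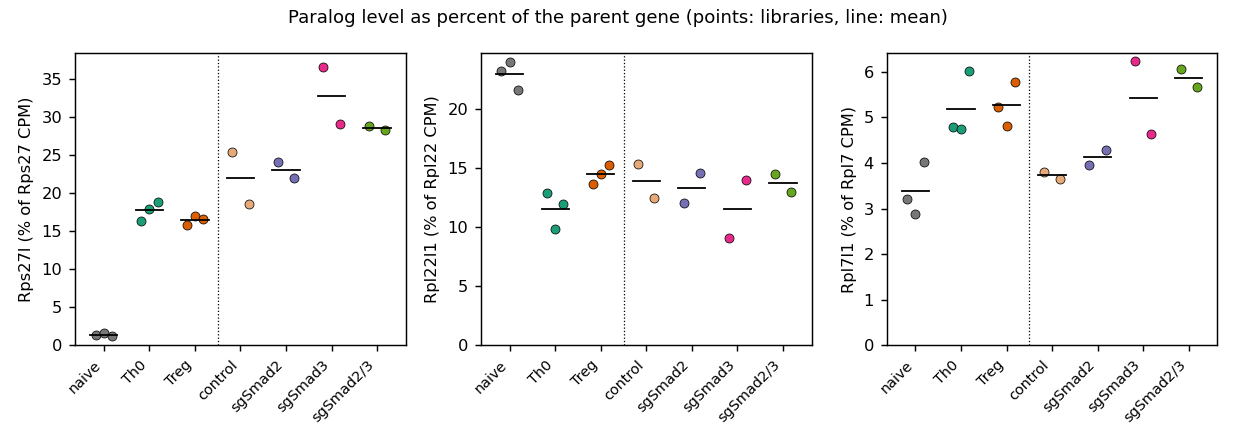
Level of 3 paralogs as percent of the parent gene (y axis, from 0) in each library (points; lines are group means), with the cell-type groups left of the dotted line and the Smad groups to its right. Rps27l rises from 1.40% of Rps27 in naive cells to 17.7% in Th0, and Rpl22l1 falls from 23.0% to 11.6% of Rpl22.

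Reads of a member can also be assigned to its processed pseudogenes, and how the authors counted reads that match several places is not given in the sources used here. Rows named as pseudogenes of ribosomal protein genes held between 0.294 and 0.437% of the reads in the cell-type libraries. Of 61 members with such rows, the pseudogenes held more reads than the gene for 4 in these libraries. They had 88.1% of the sum for Rps10, 62.1% for Rpl10, 57.5% for Rpl10a and 52.0% for Rpl13a. In the Smad libraries they also held more than the gene for Rpl36 (52.4%) and Rpl14 (51.9%). Rpl13a, a protein of the GAIT complex in other settings, was at 57.7, 53.3 and 57.3 CPM in naive cells, 85.8, 78.8 and 73.5 CPM in Th0 and 95.8, 97.3 and 91.1 CPM in Treg. It was called higher without overlap, by 0.75 in Treg and 0.49 in Th0 (limma, adjusted p = 0.000165 and 0.006). Its pseudogene row was at 108 CPM ± 5.47 (SD, n = 3) in naive cells, 63.2 CPM ± 9.57 in Th0 and 78.1 CPM ± 29.7 in Treg. With both added, the call was lost in both cultures and the direction turned in Th0, to -0.20 (limma, adjusted p = 0.219).

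Other genes of the translation apparatus were followed as lists chosen by function. Their counts stand beside 23.3% of all genes called higher and 16.5% lower in Treg, and 24.3 and 17.6% in Th0. Among the 77 mitochondrial ribosomal protein genes tested, 41 rose and 1 fell in Treg cultures and 52 rose and 1 fell in Th0, with medians of 0.73 and 0.87 on the log2 scale, against 0.081 and 0.084 over all genes. In Treg against Th0 none of the 77 passed limma's test, with 5 at an unadjusted p under 0.05. Of 17 elongation and initiation genes and others with TOP starts, 9 rose and 2 fell in Treg and 11 rose and 2 fell in Th0. Npm1, a nucleolar chaperone, rose by 0.95 in Treg and 1.36 in Th0 (limma, adjusted p = 1.41e-07 and 7.66e-10), and was the 1 gene of that list lower in Treg than in Th0 (-0.41, limma, adjusted p = 0.0115). Tpt1 fell by 0.73 in Treg and 1.07 in Th0.

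Of 22 control genes of mTORC1 and TOP translation, 7 rose and 6 fell in each culture, beside the 23.3% of all genes that were higher and 16.5% that were lower in Treg and the 24.3 and 17.6% in Th0. Eif4ebp1, the translation repressor that mTORC1 phosphorylates, rose by 2.41 in Treg and 3.58 in Th0, and Larp1, the protein that binds TOP messages, by 0.79 and 1.08. Pdcd4, an inhibitor of eIF4A, fell by 0.82 in Treg and 1.60 in Th0, and between the cultures it was higher in Treg by 0.79 (limma, adjusted p = 1.52e-05). Also between the cultures, Sesn3, a sestrin that restrains mTORC1, was higher in Treg by 0.53 (limma, adjusted p = 0.00894) and Eif4ebp1 was lower by 1.17 (limma, adjusted p = 0.0122). Of 8 host genes of small nucleolar RNAs, 3 rose and 3 fell in Treg and 3 rose and 2 fell in Th0, and Gas5 was lower in Treg than in Th0 by 0.47 (limma, adjusted p = 0.00511). Of 7 chaperones that escort new ribosomal proteins, none passed in Treg by limma (2 at an unadjusted p under 0.05) and Heatr3 rose in Th0 by 1.28 (limma, adjusted p = 0.0029). Of 9 genes of ribosome rescue and storage, 3 rose in Treg and 2 in Th0, including Serbp1, by 0.73 and 0.89.

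In the Smad experiment the levels of the targeted genes were Smad2 at 37 and 29 in control, 12 and 24 in sgSmad2, 25 and 30 in sgSmad3 and 13 and 18 in sgSmad2/3, on the deposited scale of CPM rounded to whole numbers. Smad3 was at 30 and 34 in control, 44 and 56 in sgSmad2, 26 and 25 in sgSmad3 and 41 and 37 in sgSmad2/3. Smad2 was lowest in the libraries with its guide, and Smad3 was lowest in sgSmad3 but not lower in sgSmad2/3 than in control. A guide cuts the gene and a 3′ read can lie outside the changed part, so these levels check the guides only in part. Markers of other cells also differed: the myeloid sum was 3 and 0 in control, 55 and 8 in sgSmad3 and 21 and 71 in sgSmad2/3, and the red-cell sum was 19 and 13, 87 and 32, and 70 and 144. The part of these cells in the differences below was not tested.

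No member passed limma's test in any guide comparison, beside 0% of all 18347 genes. At an unadjusted p under 0.05, 1 of 84 members was found in sgSmad2, 31 in sgSmad3 and 7 in sgSmad2/3 against the same 2 control libraries, and 16 in sgSmad3 against sgSmad2. Over all genes those counts were 1006, 1842, 1795 and 1605. The median log2 change of the members was -0.067, -0.35, -0.21 and -0.28 in these comparisons, against 0 over all genes, and 72 of 84 members lay below 0 in sgSmad3. Rpl36 was at 321 and 280 in control, 356 and 271 in sgSmad2, 149 and 192 in sgSmad3 and 252 and 252 in sgSmad2/3. It was lower in both sgSmad3 libraries than in all others, with a log2 change against control of -0.82 ± 0.18 that did not pass (limma, adjusted p = 0.284). The pseudogene rows of Rpl36 held 52.4% of the sum of gene and pseudogenes in the Smad libraries. Their mean lay the other way, at 284 ± 59.4 (SD) in control and 328.5 ± 98.3 in sgSmad3. How far reads were split between the gene and these rows was not tested. In simulated data of this design with 2 libraries a group, limma recovered 21 of 100 genes changed 2-fold and 72 of 100 changed 4-fold, and smaller changes were not simulated. The simulation gave every gene the same dispersion, changed genes of middle level only and held no pattern shared between libraries. Its rates may therefore differ from those in these data.

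A pair of libraries stood apart from the others in many members. Control replicate 1 and sgSmad2 replicate 1 were the 2 highest of the 8 libraries for 42 of 84 members (50%), against 8.28% of all genes tested and 5.19% of the ribosomal protein pseudogenes. Rps27a was at 551 in control 1 and 588 in sgSmad2 1, and between 233 and 291 in the other 6 libraries. Rpl4 was at 1612 and 1733 in these libraries and between 701 and 1009 in the others. Both carry replicate number 1, as do sgSmad3 1 and sgSmad2/3 1, which lay with the others. The second library of each of these groups did too: Rps27a was at 278 in control 2 and 291 in sgSmad2 2. Rps7, a 40S protein, Rpl5, Rps23, in the decoding centre, and Rpl23 followed, each higher by 1.06 to 1.12 on the log2 scale in the pair than in the other 6. The pair also had more genes above 0, 16547 and 16641, against 14298 to 15499, at depths within those of the others. The library sgSmad3 replicate 1 was the lowest of the 8 for 38 members (45.2%), against 8.01% of all genes.

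Without control replicate 1 and sgSmad2 replicate 1, the medians were -0.10 in sgSmad2, -0.30 in sgSmad3 and -0.17 in sgSmad2/3 against control, and -0.18 in sgSmad3 against sgSmad2, each then resting on a lone control or sgSmad2 library that is assumed to vary like the other groups. A lone library gives no spread of its own, so calls of that fit are not counted here. Rpl21 and Rps9 were picked from it after their values were seen. Rpl21 was at 348 and 249 in control, 129 and 127 in sgSmad3; Rps9 was at 613 and 500 in control, 343 and 349 in sgSmad3. For both genes the sgSmad3 libraries lay below all others in the experiment. The stalk gene Rplp1 was at 2292 and 2528 in control and 2133 to 2442 in the 6 guide libraries, which overlap.

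**Figure D5:**
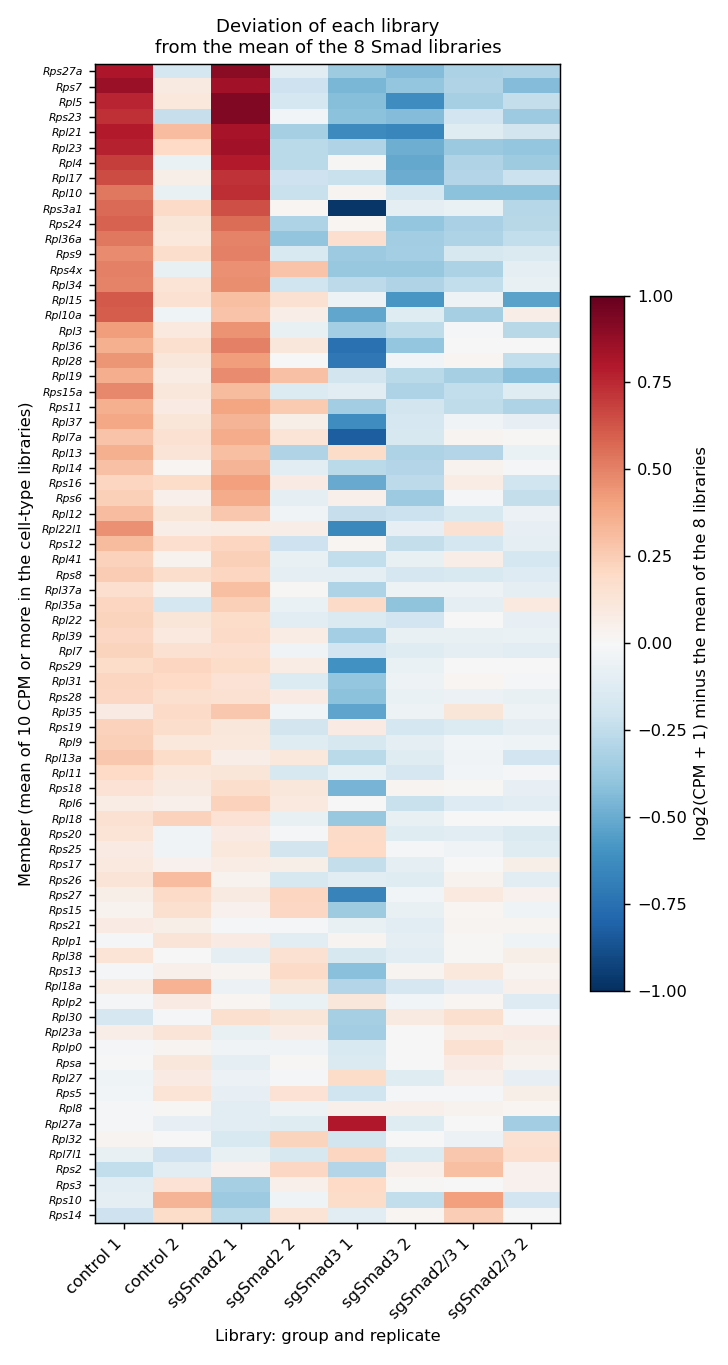
Deviation of each Smad library (x axis) from the mean of the 8 libraries in log2(CPM + 1) (colour, limited at 1 either way) for the members with a mean of 10 CPM or more (y axis, ordered by their sum in control 1 and sgSmad2 1). The upper rows are red in control 1 and sgSmad2 1 and mostly pale or blue elsewhere, with Rps27a at 551 and 588 in that pair and 233 to 291 in the others, and sgSmad3 1 has the darkest blue cells.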

How the data were processed

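RNA was extracted with TRIzol and sequenced from its 3′ ends (QuantSeq, Lexogen FWD kit), per the labels' protocols. STAR 2.7.9a, Subread 2.0.1 and mouse build mm10 are named in the submitters' processing notes; the counting of reads that match several genes is not stated there. The cell-type table was deposited as TPM, but its columns sum to 1000000 and 100% of values are whole multiples of 1 read (tolerance 0.01), so it holds CPM. The authors rounded the deposited Smad table to whole CPM, treated here as a score. Its unnamed last line (at most 7.72e-05% of a column) is not a gene and was left out of the genes. The value in that line was taken as the CPM of 1 read, and the read numbers and floors of the Smad libraries rest on this assumption.

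Log2(CPM + 1) was fitted in R 4.3.3 with limma 3.58.1 (trend, all groups of a table together, Benjamini-Hochberg over all genes, threshold 0.05) for genes at 1 or more in 3 (cell types) or 2 (Smad) libraries. Changes on this scale understate those of low genes. On the recovered whole reads, edgeR 4.0.16 called 1066 genes and DESeq2 1.42.0 called 582 in Treg against Th0, and limma 770. On simulated data limma recovered 84 of 100 genes changed 2-fold and 100 of 100 changed 4-fold in that comparison (13759 genes). Every simulated gene had the same dispersion, and only genes of middle level were changed. Replicates of the cell types differed by more than sampling noise (chi-square per degree of freedom 1.43 to 2.27). Pseudocount, filter, trend, scaling, replicate block, pseudogenes and left-out libraries were varied. Named were the called members of largest change (up to 10 a direction), the paralogs and parents, the stalk and 5S genes, Rps6, Rpsa, Rps27a, the 3 highest and 3 lowest members, and up to 4 genes a list by adjusted p. Members and lists were chosen with earlier results of these data known; the other members named, and those named for control 1 and sgSmad2 1, were chosen after their values were seen. The 8 chromatin libraries and 4 Acsbg1 libraries of the series were not analysed here.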

Additional observations from a re-analysis of the deposited data

Results flagged for a closer look

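The members Rplp1 and Rpl36 changed differently against naive cells in the 2 cultures, by the test of that difference, which is the Treg against Th0 comparison. For Rplp1 the change in Treg less that in Th0 was -0.30 on the log2 scale (limma, adjusted p = 0.0103), lower in 3 of 3 Treg libraries than in every Th0 library. For Rpl36 it was -0.38 (limma, adjusted p = 0.0352), also lower in 3 of 3.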

How the results depend on the processing

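Over the named members, 3255 of 3348 values under alternatives kept their side of the threshold, 68 lost the call and 24 gained it. In 1 more a called value turned in direction: Rpl13a in Th0 against naive, to -0.20 with pseudogenes added. A change of sign in a value called in neither fit was counted as kept. For Treg against Th0, 2 called members became 1 with a pseudocount of 0.1, 0 with no intensity trend, 0 with only the 2 groups in the fit, 0 scaled to the sum of the members (added after seeing the data) and 0 to 2 without 1 library; the median became -0.0033 scaled to the members. Without the trend, 11 members were called in Treg and 16 in Th0 against naive cells, and the share of all genes called there is not given. The median in Treg against naive, 0.015, became -0.072 with TMM, -0.10 with edgeR and -0.11 with DESeq2, and in Th0 it went from 0.10 to 0.0058, -0.0089 and -0.0094. In the same settings the median over all genes moved down as well. It went from 0.081 to 0.0043, -0.0046 and -0.017 in Treg and from 0.084 to -0.0044, -0.022 and -0.023 in Th0. Scaled to the sum of the members, the median became -0.045 in sgSmad3, 0.0028 in sgSmad2/3 and -0.061 in sgSmad3 against sgSmad2. That scaling takes out a shift shared by the members by construction. These medians, and the -0.0033 above, therefore do not test such a shift. The fit without control replicate 1 and sgSmad2 replicate 1 was also added after seeing the data. Its calls, and those of Smad fits without 1 library, rest on a group of 1 library and are not counted here. The share of the members was 7.63% in naive, 7.56% in Th0, 7.17% in Treg, 6.96% in control, 5.58% in sgSmad3 and 6.02% in sgSmad2/3 without Gm42418, and 7.18, 7.40, 6.97, 6.99, 5.80 and 6.08% with pseudogenes added. The causes were not tested.

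What the replicate numbers mark is not given in the labels. Correlations of same-numbered deviations over all genes tested were 0.0079 to 0.025 in the cell types. In the Smad table they were 0.22 for control with sgSmad2 and 0.0043 to 0.035 for the other pairs of groups. With the replicate number as a block, 2 members were called in Treg against Th0, 26 in Treg and 32 in Th0 against naive, and 0 in each guide comparison. Depth limits members under 3.76 CPM, where 3 reads are the floor.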
